A study of Homo sapiens with 27 samples.

Results

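The 10 genes ORAI1, STIM1, TRPV3, TRPV6, TRPC1, ATP2B1, ATP2B4, ATP2A2, ITPR1 and ITPR3 encode proteins that let calcium into the cell, hold it in the endoplasmic reticulum, release it from there or pump it out. They were taken by symbol from the 60683 genes of the deposited tables, and all 10 were among the 16173 genes with enough reads to be tested. Their messenger RNA was followed in MCF10DCIS.com, a human breast line derived from MCF10A that stands in for ductal carcinoma in situ, after exposure to calcium oxalate crystals of different form. Cells were seeded at 500000 per flask, left for 6 h and then given crystals at 0.1 mg/mL, and polyadenylated RNA was sequenced. The sources used here do not give how long the crystals stayed on the cells.

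There were 27 libraries in 6 groups. COM crystals are plates of calcium oxalate monohydrate. The other crystals are calcium oxalate dihydrate in 4 shapes. DB are dumbbells, SPH spheres, TK bipyramids described as thick and TN bipyramids described as thin. There were 4 libraries of each form and 7 of untreated cells, called Control. All groups share the same cell line, and no label says whether libraries of a group were grown separately, so the p-values below measure the spread between these libraries, which may be technical in part.

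Calcium that enters a non-excitable epithelial cell comes largely through store-operated entry. STIM1 senses that the endoplasmic reticulum has lost calcium and opens ORAI1, the pore in the plasma membrane. IP3 receptors (ITPR1 and ITPR3) empty the store when inositol trisphosphate binds them, the pump ATP2A2 refills it, and the pumps ATP2B1 and ATP2B4 push calcium out across the plasma membrane. TRPV3, TRPV6 and TRPC1 are further cation channels of the plasma membrane. In breast, ATP2B pumps, ORAI1 and TRPV6 have been studied for their part in calcium supply to milk and in tumours.

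Library totals ran from 13115669 to 38672521 counts (median 19251257), which left between 17 and 94 counts per library for TRPV6, the scarcest of the 10 genes, and between 5437 and 17582 for ATP2A2, the most abundant. By the serial number each library carries, the libraries form 3 consecutive runs, treated here as sets. Library set 1 holds 10 libraries (replicates A and B of COM, DB, SPH, TN and Control), set 2 holds 12 (replicate C of COM, DB, SPH and TN, all 4 of TK, and Control C to F) and set 3 holds 5 (replicate D of COM, DB, SPH and TN, and Control G). The sources used here do not say what the runs were. The place of TN C in set 2 is uncertain, since its mean fragment length of 297 nt was nearer to the libraries of set 1 than to the others of set 2. TN B carried liver transcripts (ALB, APOA1, APOB, TTR and FGB, 839 CPM in sum, against at most 15.2 CPM in any other library) and 58.6 CPM of LYZ, so calls that rest on TN are also given without it. CPM here are counts scaled to a common library total after TMM normalisation. All 7 basal epithelial markers were expressed in every group (6180 to 8050 CPM in sum), and the leukocyte genes PTPRC and CD3E were each under 0.2 CPM in every library. In whole cultures, fewer cells of a type and less RNA per cell cannot be told apart.

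Of the 10 genes, 4 differed between the 6 groups. These were the channels TRPV3 and TRPC1, the export pump ATP2B4 and the release channel ITPR1. TRPV3 showed the widest contrast of the 10, being 2.18-fold higher with dumbbells and lower with thick bipyramids, at 0.459 of the Control level. The store sensor STIM1 was slightly higher with monohydrate plates, ITPR1 was lower with plates and with thin bipyramids, and no gene of the 10 was called with spheres. ORAI1, TRPV6, ATP2A2 and ITPR3 were called neither in the joint test nor in any comparison with Control or between forms, though without the filter on low counts ITPR3 was called jointly (adjusted p = 0.0022). The joint test over 6 groups was an edgeR quasi-likelihood F-test with the library set in the model, and "called" means an adjusted p under 0.05 by Benjamini and Hochberg's method over all genes tested. It called 23.2% of all genes tested, against 4 of these 10, with adjusted p = 1.9e-06 for TRPV3, 0.0013 for ATP2B4, 0.0097 for ITPR1 and 0.03 for TRPC1. The values of ATP2B1 (adjusted p = 0.051) and STIM1 (0.053) lay just above the threshold.

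Levels per transcript length, given as TPM, put ATP2A2 far above the others at a median of 102 TPM over the 27 libraries, in the 92.1th percentile of genes tested. STIM1 (30.5 TPM), ATP2B4 (26.6), ITPR3 (24.3), ORAI1 (23.8) and ATP2B1 (15.4) formed a middle group whose libraries overlapped, with ATP2B1 lowest. ITPR1 (4.41 TPM) lay below all of these, and its highest library (6.79) did not reach the lowest of ATP2B1 (9.24). TRPC1 (1.95), TRPV3 (1.87) and TRPV6 (0.86) were lowest, and their ranges overlapped. TRPV3 spread most between libraries, at 0.73 to 5.71 TPM.

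**Figure D1:**
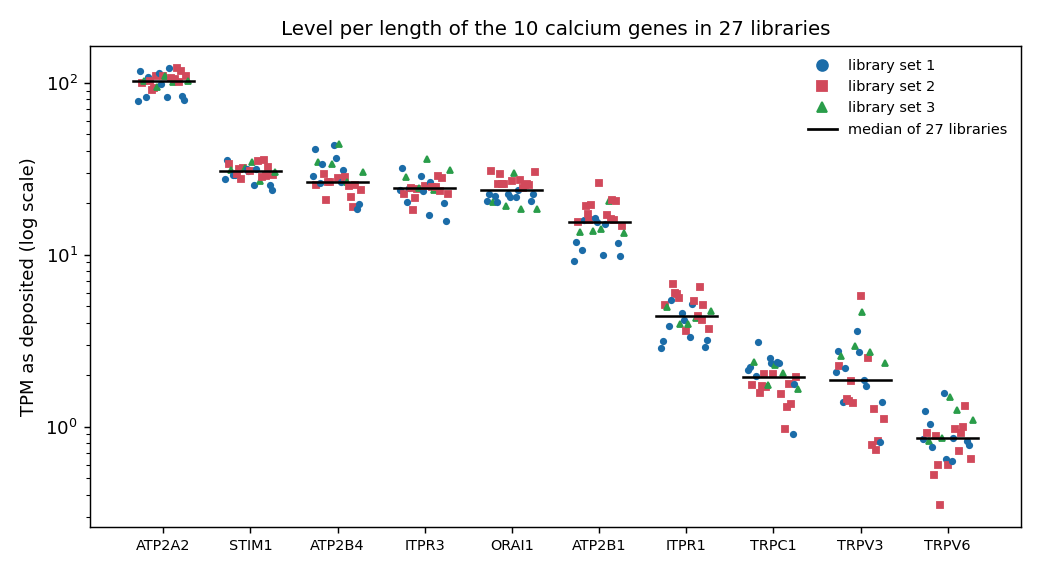
Level of each of the 10 genes per transcript length (TPM as deposited, log scale) in the 27 libraries, ordered by median; each point is 1 library, its shape and colour give the library set, and the bar is the median. ATP2A2 stood highest at a median of 102 TPM and TRPV6 lowest at 0.86 TPM.

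Within their families the listed genes were mostly the major members. ATP2A2 made up 98.7% ± 1.2 of the summed TPM of the 3 SERCA pumps (SD, n = 27), TRPC1 97.5% ± 4.0 of the TRPC channels, ITPR3 71.6% ± 4.62 and ITPR1 13.4% ± 2.92 of the IP3 receptors, ORAI1 65.6% ± 5.93 of the ORAI pores and STIM1 61.2% ± 5.06 of the STIM sensors. ATP2B4 and ATP2B1 together made up nearly all of the plasma membrane pumps, at 64.5% ± 7.82 and 35.5% ± 7.81. ITPR1 was a minor member, near the unlisted ITPR2 (15% ± 3.05). The TRPV channels were another exception. TRPV4 held 90.7% ± 2.57 of their TPM, and TRPV3 (4.25% ± 1.81) and TRPV6 (1.96% ± 0.772) were minor members.

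TRPV3 is a heat-sensitive cation channel known chiefly from skin keratinocytes (chromosome 17, 3510502 to 3557995, minus strand, GRCh38). DB libraries A to D held 14.7, 11.7, 20.8 and 19.5 CPM, against 5.22 to 12.3 CPM (median 6.72) in the 7 Control libraries. All but DB B lay above the highest Control library. The log2 change was 1.12 (SE 0.17, 95% interval 0.77 to 1.47, edgeR adjusted p = 0.00018). Set by set, it was 0.73 in set 1 (adjusted p = 0.096), 1.86 in set 2 (adjusted p = 0.00062) and 0.67 in set 3 (adjusted p = 0.28), and DB C, the only dumbbell library of set 2, stood furthest from its Control libraries. The adjusted p of this change ran from 2e-17 to 0.28 over all settings tried, and it stayed below 0.05 whichever library was left out (log2 0.83 to 1.25). A test of whether the DB change differed between sets gave adjusted p = 0.37 for TRPV3.

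Thick bipyramids went with the opposite direction. TK libraries A to D held 2.33, 3.92, 2.83 and 3.05 CPM of TRPV3, against 5.22 to 12.3 CPM (median 6.72) in Control, and the groups did not overlap. The log2 change was -1.12 (SE 0.22, 95% interval -1.57 to -0.68, adjusted p = 0.00093). Against Control C to F, the libraries of the same set, which held 5.26, 5.28, 7.33 and 5.22 CPM, it was -0.92 (SE 0.19, adjusted p = 0.0041). The change kept its call in each of the 34 alternatives run (log2 -1.28 to -0.92, adjusted p = 2.8e-10 to 0.0065).

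The remaining forms did not pass the test for TRPV3. COM libraries held 10.3, 11.5, 7.36 and 10.8 CPM (log2 0.38, SE 0.18, adjusted p = 0.23), SPH libraries 8.81, 6.63, 8.53 and 10.4 CPM (0.17, SE 0.18, adjusted p = 0.96) and TN libraries 4.04, 5.66, 4.82 and 8.24 CPM (-0.46, SE 0.18, adjusted p = 0.1), all against Control as above. All 3 forms overlapped Control. Within set 1 alone, where TN A and B both lay below Control A (6.72) and B (9.24), the TN change was -0.71 (adjusted p = 0.043), and -0.98 with TN A alone (adjusted p = 0.028). Over all sets it was -0.52 without TN B (adjusted p = 0.1). Control G of set 3, at 12.3 CPM, was itself above the Control libraries of set 2 by log2 1.10 (SE 0.25, adjusted p = 0.013). It was the only call among the 10 genes in that comparison, in which 5.42% of all genes tested were called.

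TRPC1 forms cation channels linked to store-operated entry (chromosome 3, 142724074 to 142807888, plus strand). TK libraries held 2.97, 3.98, 2.77 and 4.22 CPM, against 4.34 to 7.52 CPM (median 5.37) in Control. No TK library reached the lowest Control library. The log2 change was -0.55 (SE 0.17, 95% interval -0.91 to -0.19, adjusted p = 0.033). Within set 2 it was -0.49 (SE 0.18, adjusted p = 0.087), and the call was lost without Control E, Control F, TK A or TK C (adjusted p = 0.012 to 0.13 over all settings). Library means of the other forms were 6.06 ± 0.863 CPM for COM, 7.06 ± 0.915 for DB, 6.59 ± 1.63 for SPH and 4.91 ± 1.09 for TN (SD, n = 4 each), against 5.6 ± 1.07 in Control (SD, n = 7), and none of these passed the test. TRPC1 rests on 46 to 261 counts per library and TRPV3 on 40 to 631.

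The sequences before the transcription start of TRPV3 and TRPC1 are shown because these channels were the ones called with thick bipyramids. They come from RefSeq on GRCh38.p14, in which 9 of the 10 genes were matched by symbol. The 250 bases before each start were searched on both strands for the AP-1 motif TGANTCA, the CRE TGACGTCA and the GC box GGGCGG, which do not overlap in the stretches printed. Capitals mark the AP-1 match in TRPV3 (chr17:3557899-3557928, minus strand, 30 of the 250 bases) and the GC boxes, on the opposite strand, in TRPC1 (chr3:142723784-142724033, plus strand).
TRPV3: tgggtgtgggggTGACTCAcacgggccacg
TRPC1: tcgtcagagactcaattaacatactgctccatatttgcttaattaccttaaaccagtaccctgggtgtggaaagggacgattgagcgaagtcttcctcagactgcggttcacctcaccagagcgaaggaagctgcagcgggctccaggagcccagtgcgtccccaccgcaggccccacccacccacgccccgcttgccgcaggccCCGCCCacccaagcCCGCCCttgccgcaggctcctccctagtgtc
TRPV3 was the only one of the 9 with an AP-1 match, which began 104 bases before the RefSeq start. In GENCODE 29 that stretch lies inside an exon of a longer TRPV3 transcript. An AP-1 match was found in 6.57% of the 35116 human promoters of the same length, and a CRE in 1.65%. A CRE was found in none of the 9. A GC box was found in 42.6% of those promoters. Among the 9 it was found in TRPV3, TRPC1, ATP2B1, ATP2B4 and ITPR3. The 250 bases searched for ATP2B4 and for ITPR3 lie wholly inside exons of those genes in GENCODE 29. A match is a string of letters and not a measured binding site.

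ITPR1 is an IP3 receptor that releases calcium from the store (chromosome 3, 4493345 to 4847840, plus strand). TN libraries A to D held 10.6, 8.69, 14.4 and 13.9 CPM, COM libraries 11.1, 10.3, 15.3 and 12.7 CPM, and Control libraries 14 to 20.2 CPM (median 17.4). Of each form, 3 libraries lay below every Control library and the library of set 2 (C) lay within the range of all Control libraries. Against the Control libraries of its own set (17.3 to 20.2 CPM), library C of each form was lower too. For TN the log2 change was -0.46 (SE 0.11, 95% interval -0.70 to -0.23, adjusted p = 0.0084). It was -0.76 within set 1 (adjusted p = 0.0061), -0.33 within set 2 and -0.01 within set 3, the last from 1 library of each group. Without TN B it was -0.37 (adjusted p = 0.039), and with TN C counted in set 1 it was -0.39 and no longer called (adjusted p = 0.052). Over all settings the adjusted p ran from 0.0018 to 1.

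For COM the ITPR1 change was -0.39 (SE 0.12, 95% interval -0.63 to -0.16, adjusted p = 0.039). Within sets 1, 2 and 3 it was -0.61, -0.25 and -0.14, none of them called (adjusted p = 0.06, 0.66 and 1). It lost its call in 7 of the 27 fits that left out a library, namely Control A, B or C, COM A, B or D, or TK B. DB libraries held 12.6, 12.6, 13.6 and 14 CPM, of which A to C lay below every Control library and D was level with the lowest (log2 -0.29, SE 0.11, adjusted p = 0.11). TK libraries held 13, 14.9, 13.6 and 17.5 CPM (log2 -0.31, SE 0.12, adjusted p = 0.071) and SPH libraries 11.6, 16.9, 17.7 and 17.3 CPM (log2 -0.03, SE 0.11, adjusted p = 0.99), and both overlapped Control.

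ITPR3, the most abundant IP3 receptor here (chromosome 6, 33620365 to 33696574, plus strand), averaged 204 ± 34.2 CPM in COM, 204 ± 41.7 in DB, 169 ± 16.8 in SPH, 180 ± 7.23 in TK and 175 ± 41.5 in TN (SD, n = 4 each), against 165 ± 15.3 in Control (SD, n = 7). It was called against Control in no form, with log2 differences of -0.03 to 0.24. Its 3' end overlaps UQCC2 on the opposite strand (33694293 to 33696574), which was read at a median of 51.5 CPM. Whether counting used strand is not stated in any source used here, and whether reads were divided between both genes was not tested. The ITPR3 counts were fractional in all 27 libraries. Those of ORAI1 were fractional in 22 and those of ATP2A2 in 10, though no annotated gene overlaps either. No gene that overlaps any other of the 10 exceeded 0.757 CPM.

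STIM1, the calcium sensor of the store (chromosome 11, 3854527 to 4093210, plus strand), was the only entry gene called with monohydrate plates. COM libraries held 98.3, 104, 95.8 and 95.1 CPM, against 81.6 to 91.3 CPM (median 84.4) in Control, and the groups did not overlap. The difference was small, at log2 0.19 (SE 0.06, 95% interval 0.08 to 0.31, adjusted p = 0.039) or 1.14-fold. It was 0.19, 0.21 and 0.11 within sets 1, 2 and 3, and none of these was called (adjusted p = 0.19, 0.33 and 1). The call was lost in 20 of the 27 fits that left out a library, among them each of the 4 COM libraries and every Control library but A and D, while the log2 change stayed between 0.16 and 0.21. The next highest form was DB, at 92.6, 96, 85.7 and 105 CPM (log2 0.14, SE 0.06, adjusted p = 0.13).

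ORAI1, the pore that STIM1 opens (chromosome 12, 121626550 to 121642677, plus strand), ran from 23 to 36.6 CPM over all 27 libraries. Group means lay between 27.4 CPM in SPH and 29.6 CPM in COM, with 28.8 ± 4.07 in Control (SD, n = 7). No form was called, and the 95% intervals of the 5 log2 differences from Control together spanned -0.28 to 0.32. The highest libraries of COM (36.6), TN (35.8) and Control (35.3) all belonged to set 2, and the single Control of set 3 differed from the Control libraries of set 2 by log2 -0.43 (SE 0.12, adjusted p = 0.055). In set 3, DB D held 34.2 CPM against 23.1 CPM in Control G (log2 0.57, SE 0.15, adjusted p = 0.056), whereas the DB difference was -0.04 in set 1 and -0.06 in set 2. The test of that difference between sets gave adjusted p = 0.43.

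TRPV6, a calcium-selective channel of absorptive and secretory epithelia (chromosome 7, 142871203 to 142885762, minus strand), was close to the lower limit of what could be compared. Group medians lay between 1.51 CPM in SPH and 2.1 CPM in DB, against 1.4 CPM in Control. The highest difference from Control was that of TK at log2 0.51 (SE 0.21, 95% interval 0.08 to 0.95, adjusted p = 0.1), and no form was called. In COM, DB, SPH, TN and Control alike the library of set 3 held the most TRPV6, at 2.18, 2.91, 1.68, 2.65 and 2.31 CPM.

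ATP2B4, an export pump of the plasma membrane (chromosome 1, 203626561 to 203744081, plus strand), was higher with dumbbells. DB libraries held 223, 201, 137 and 234 CPM, against 114 to 170 CPM (median 142) in Control. DB A, B and D lay above every Control library, and DB C lay below the Control median. The log2 change was 0.38 (SE 0.12, 95% interval 0.14 to 0.62, adjusted p = 0.039). The values for sets 1, 2 and 3 were 0.44, 0.07 and 0.53, and none of these was called (adjusted p = 0.12, 0.94 and 0.17). It was not called without Control A, D, E, F or G, DB A, B or D, or SPH C (log2 0.32 to 0.51 over the libraries left out).

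The other forms were spread on both sides of Control for ATP2B4. COM libraries held 168, 239, 136 and 188 CPM (log2 0.26, SE 0.12, adjusted p = 0.2), SPH libraries 144, 158, 146 and 149 CPM (-0.02, SE 0.12, adjusted p = 1), TK libraries 104, 109, 99.9 and 115 CPM (-0.29, SE 0.12, adjusted p = 0.11) and TN libraries 109, 97.6, 125 and 155 CPM (-0.32, SE 0.12, adjusted p = 0.081). Of the TK libraries, 3 lay below the lowest Control library and TK D lay above it. Within set 1 the TN difference was -0.59 (SE 0.14, adjusted p = 0.0092), within set 2 -0.07 and within set 3 -0.06. TN B, the library with liver transcripts, was the lowest of the TN libraries, and without it the TN difference was -0.21 (adjusted p = 0.25).

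ATP2B1, the other export pump (chromosome 12, 89588049 to 89709300, minus strand), was called against Control in no form. COM libraries held 46, 53, 61.4 and 46.3 CPM (log2 -0.14, SE 0.08, adjusted p = 0.35) and DB libraries 67.6, 69, 71.6 and 54.8 CPM (0.21, SE 0.08, adjusted p = 0.1), against 52.8 to 65.2 CPM (median 57.8) in Control. Plates and dumbbells thus fell on opposite sides of Control without either passing the test, and their direct comparison is given with the pairs of forms. ATP2A2, which refills the store (chromosome 12, 110280756 to 110351093, plus strand), averaged 457 ± 48.8 CPM in COM, 474 ± 20.6 in DB, 461 ± 35.3 in SPH, 463 ± 14.7 in TK and 450 ± 36 in TN (SD, n = 4 each), against 443 ± 26.8 in Control (SD, n = 7). The 95% intervals of its 5 log2 differences from Control spanned -0.13 to 0.24.

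**Figure D2:**
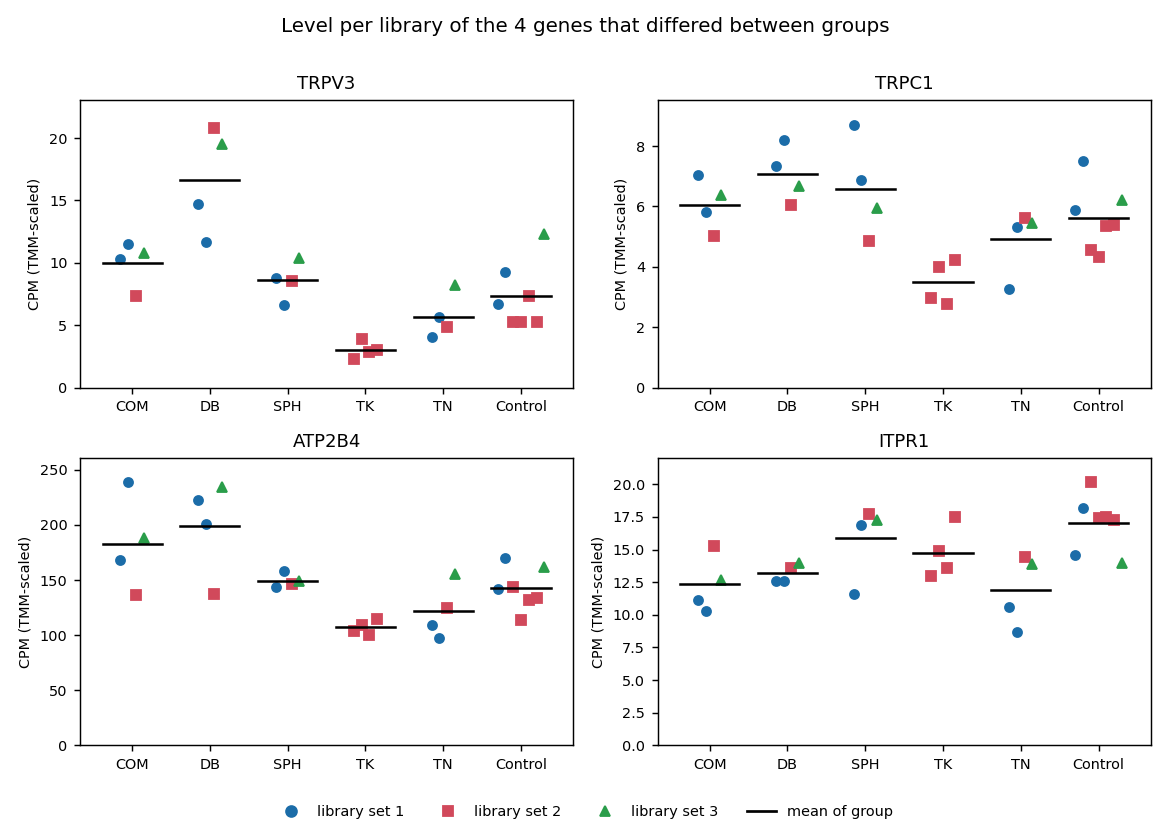
TMM-scaled CPM of TRPV3, TRPC1, ATP2B4 and ITPR1 in each library by group, with Control at the right; the bar is the group mean and shape and colour give the library set. For TRPV3 the TK libraries (2.33 to 3.92 CPM) lay below all Control libraries (5.22 to 12.3 CPM) and the DB libraries reached 20.8 CPM.

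**Figure D3:**
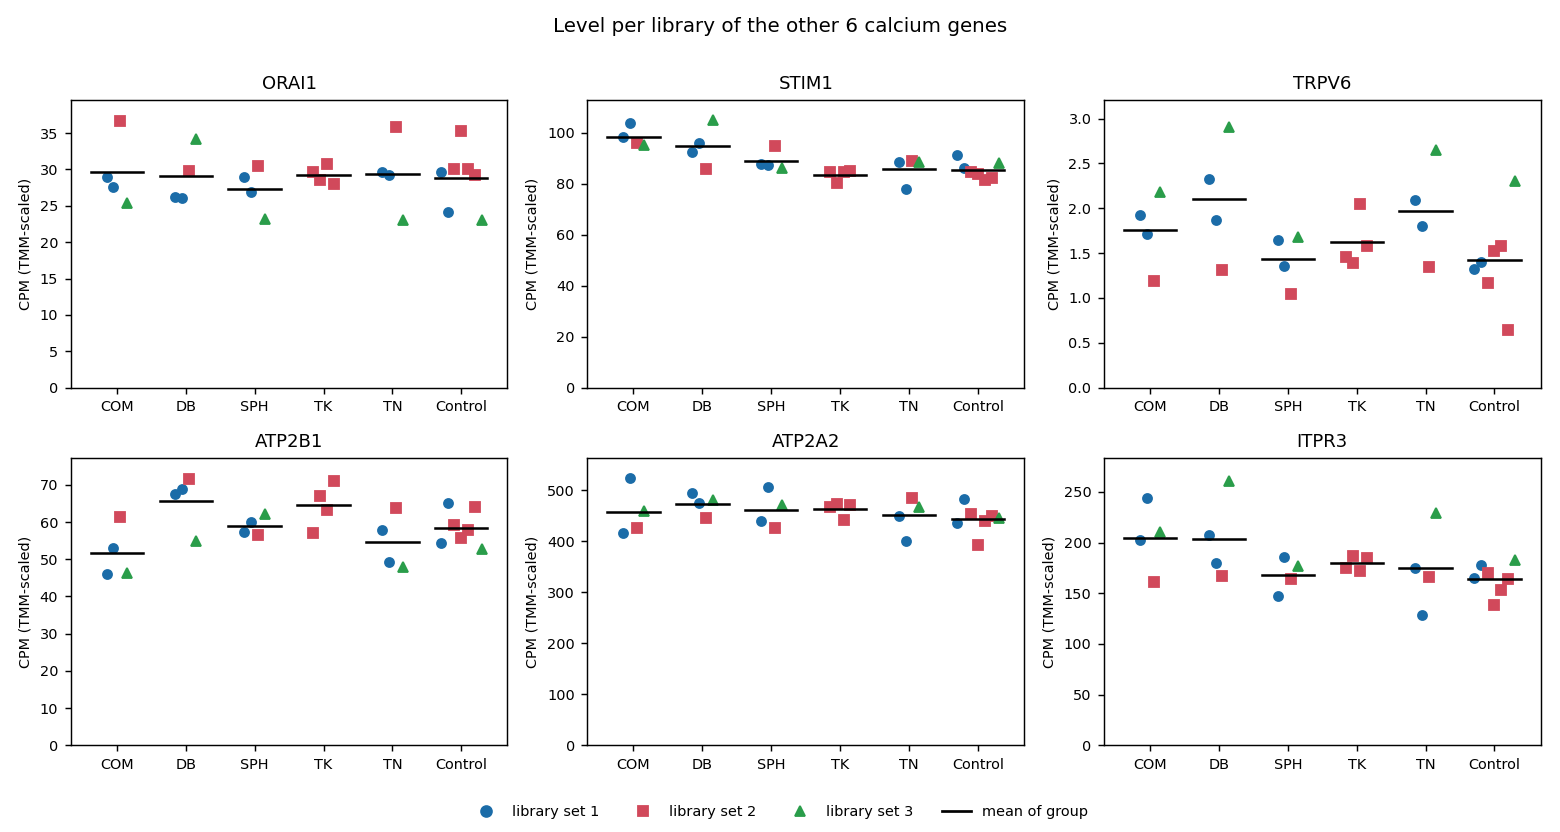
TMM-scaled CPM of the other 6 genes in each library by group, drawn in the same way. STIM1 in the COM libraries (95.1 to 104 CPM) lay above all Control libraries (81.6 to 91.3 CPM), while ORAI1 and ATP2A2 overlapped Control in every form.

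Counted by form, COM plates gave 1 higher gene (STIM1) and 1 lower (ITPR1) of 10, where 3.94% of all genes tested were called higher and 2.42% lower. DB gave 2 higher (TRPV3 and ATP2B4) and 0 lower, where 5.92% were called higher and 4.10% lower. TK gave 0 higher and 2 lower (TRPV3 and TRPC1), where 8.04% were called higher and 7.33% lower. TN gave 0 higher and 1 lower (ITPR1), where 6.84% were called higher and 4.88% lower. SPH gave 0 by edgeR, 0 by DESeq2 and 0 at an unadjusted p under 0.05, where 0.111% of all genes tested were called. At an unadjusted p under 0.05 there were 5 in COM, 6 in DB, 6 in TK and 3 in TN. The share of all genes tested at that threshold was not worked out. Unadjusted counts, here and below, therefore cannot be set against the shares called. In 10 genes, 1 call more or fewer moves the share by 10 percentage points, so these counts alone do not set the genes apart from the rest. The median log2 difference from Control over the 10 genes was 0.14 with COM, 0.22 with DB, 0.03 with SPH, -0.05 with TK and -0.03 with TN, where the medians of all genes tested lay between -0.02 and 0. The 5 comparisons share the 7 Control libraries and so are not independent of each other.

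**Figure D4:**
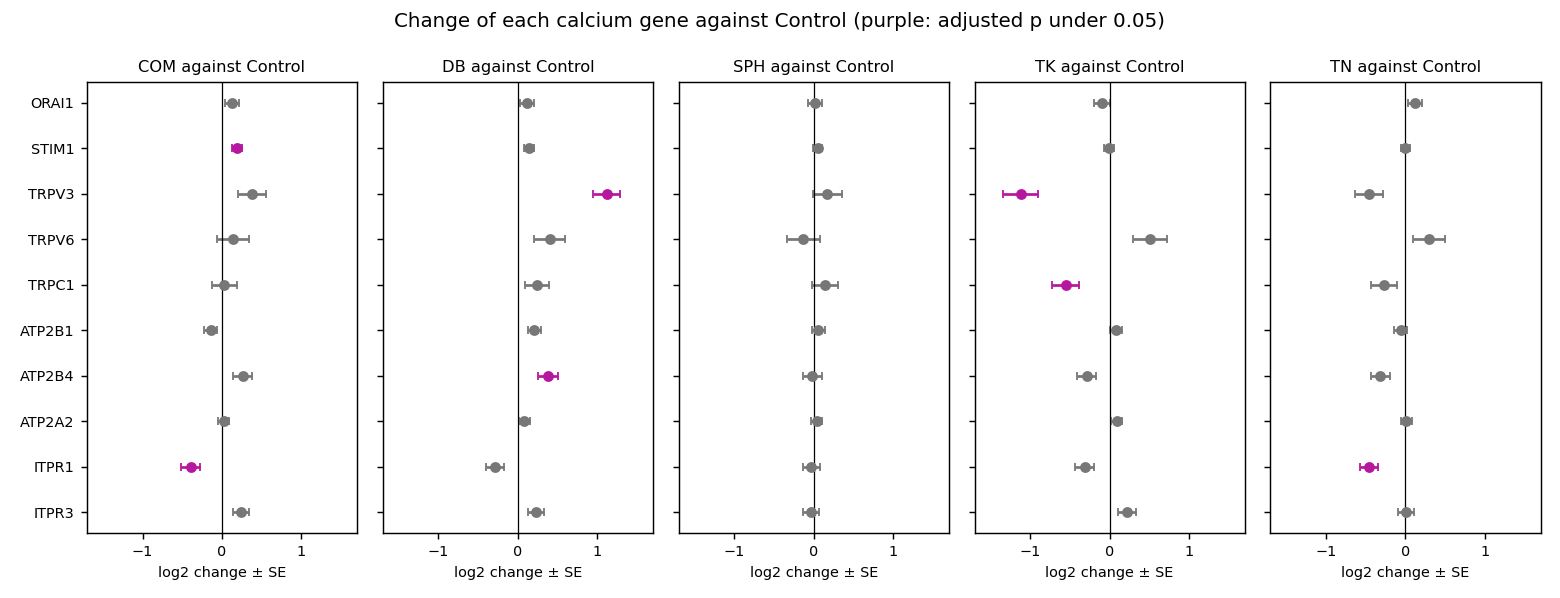
Log2 change of each of the 10 genes against Control, with its standard error, in 1 panel per crystal form; purple points have an adjusted p under 0.05. TRPV3 was 1.12 higher in DB and 1.12 lower in TK on this scale, and no point is purple in SPH.

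The crystal forms were also compared with each other at their common dose of 0.1 mg/mL, in 10 pairs, with p-values adjusted over all genes and pairs together. Set 2 alone holds TK, with 1 library of each other form. Pairs with TK therefore also rest on the other sets, through the set term. Of 100 combinations of gene and pair, 15 were called, in 5 of the genes, where 4.69% were called over all genes tested. The 10 pairs are drawn from 5 forms and so are not independent of each other, and 1 gene can count in several. The calls therefore cannot be read as a share of 100 separate tests. By pair, the share of all genes called was 11.4% for DB against TK, 9.94% for COM against TK, 7.50% for DB against TN, 5.18% for SPH against TK, 4.91% for COM against TN, 2.73% for SPH against TN, 1.22% for DB against SPH and 1.15% for COM against DB. TRPV3 accounted for 7 of the 15 calls. The widest was dumbbells against thick bipyramids, both dihydrate, at log2 2.25 (SE 0.23, 95% interval 1.77 to 2.72, adjusted p = 5.5e-06), a 4.74-fold difference between 11.7 to 20.8 CPM in DB and 2.33 to 3.92 CPM in TK, with no overlap. Dumbbells also exceeded thin bipyramids by 1.59 (SE 0.20, adjusted p = 5.8e-05) and spheres by 0.96 (SE 0.19, adjusted p = 0.0045). Spheres exceeded thick bipyramids by 1.29 (SE 0.24, adjusted p = 0.0023). These 4 kept their calls in each of the 33 alternatives run, at adjusted p = 0.021 or below. Fits within a set were not among the alternatives for any pair of forms. Such fits lost the TRPV3 call of DB against Control in sets 1 and 3.

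Monohydrate plates stood between the dihydrate shapes for TRPV3. COM was lower than DB by log2 0.74, written as COM minus DB -0.74 (SE 0.19, adjusted p = 0.024). It was higher than TK by 1.50 (SE 0.24, adjusted p = 0.00061) and than TN by 0.84 (SE 0.20, adjusted p = 0.014). Without TN B, the TRPV3 difference was 0.90 for COM minus TN (adjusted p = 0.02) and 1.64 for DB minus TN (adjusted p = 0.00013). COM and SPH were not called apart, with a difference of 0.21 and a 95% interval of -0.20 to 0.62. The COM and DB call was lost without COM C, COM D or DB C and without the set term (adjusted p = 1.2e-05 to 0.1 over all settings), and that of COM and TN without TN A and without the set term (2.8e-06 to 0.058). Between both bipyramids, TK minus TN was -0.66 (SE 0.24, 95% interval -1.16 to -0.16, adjusted p = 0.12), and none of the 10 genes was called in that pair by edgeR or by DESeq2 (1 at an unadjusted p under 0.05), where 1.21% of all genes tested were.

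In the fit over all sets, ATP2B4 was higher in plates and dumbbells than in either bipyramid. The log2 difference was 0.55 for COM minus TK (SE 0.14, adjusted p = 0.026), 0.58 for COM minus TN (SE 0.13, adjusted p = 0.0092), 0.66 for DB minus TK (SE 0.15, adjusted p = 0.0075) and 0.69 for DB minus TN (SE 0.13, adjusted p = 0.0022). Without TN B both TN pairs were still called, at 0.46 (adjusted p = 0.041) for COM minus TN and 0.58 (adjusted p = 0.0099) for DB minus TN. COM minus DB was -0.12 with a 95% interval of -0.38 to 0.15. The COM and TK call was lost without COM B, SPH C, TK A, TK B or TK C (adjusted p = 1.2e-05 to 0.086 over all settings). In set 2, the only set with TK, COM C held 136 CPM and DB C 137, against 99.9 to 115 in TK and 125 in TN C. Those COM and DB libraries lay within the Control range of that set (114 to 144 CPM), and SPH C held 146 CPM.

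TRPC1 was higher in DB than in TK by 0.79 (SE 0.20, adjusted p = 0.02), a call lost without TK A or TK C (adjusted p = 0.0026 to 0.066 over all settings). It was higher in SPH than in TK by 0.69 (SE 0.20, adjusted p = 0.047), a call lost in 22 of 27 fits without a library (adjusted p = 0.0062 to 0.13 over all settings). ATP2B1 was lower in COM than in DB, at log2 -0.35 (SE 0.09, 95% interval -0.53 to -0.16, adjusted p = 0.022), a call lost without COM A, COM D, DB A or DB B (adjusted p = 0.005 to 0.093). ITPR1 was higher in SPH than in TN by 0.43 (SE 0.13, adjusted p = 0.045), a call lost in 19 of 27 fits without a library, without the set term and with TN C in set 1 (adjusted p = 0.016 to 0.17 over all settings). Without TN B it was 0.33 (adjusted p = 0.15). For COM against SPH none of the 10 was called by edgeR or by DESeq2 (1.60% of all genes tested were by edgeR), and 5 had an unadjusted p under 0.05.

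**Figure D5:**
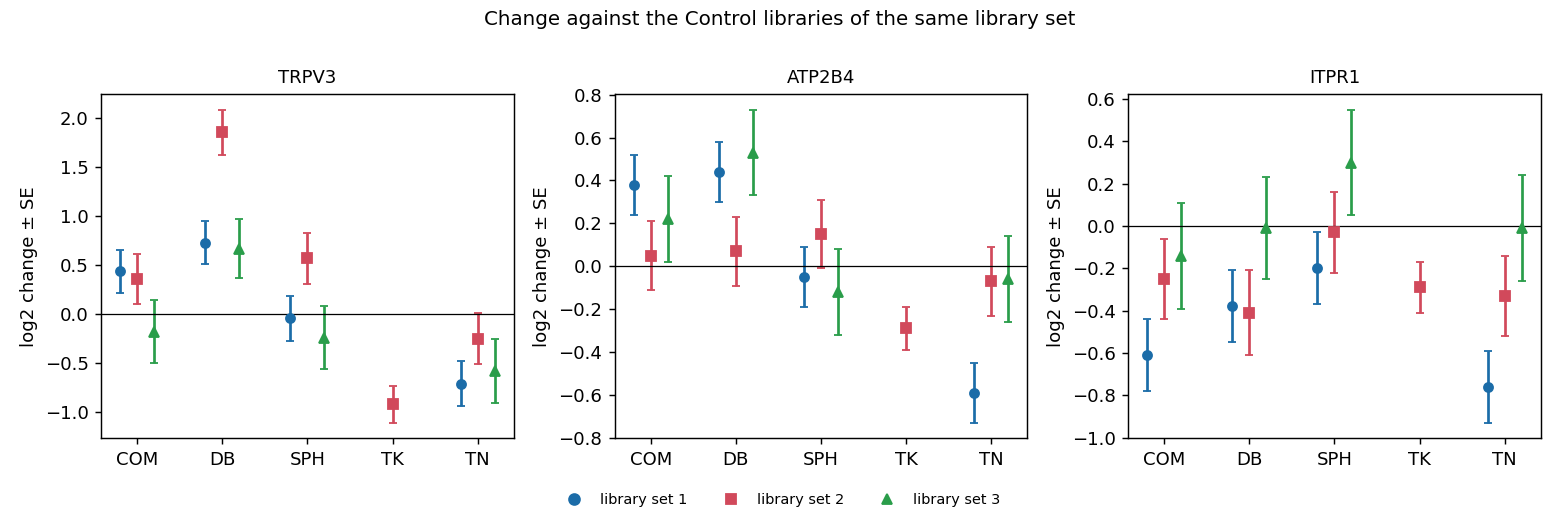
Log2 change of TRPV3, ATP2B4 and ITPR1 in each crystal form against the Control libraries of the same library set, with its standard error; all 4 TK libraries belong to set 2. The TRPV3 change in DB was above 0 in all 3 sets (0.67 to 1.86), and the ITPR1 change in TN was -0.76 in set 1 and -0.01 in set 3.

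The Control libraries of sets 1 and 2 were compared as well. Control C to F against Control A and B gave 0 calls by edgeR, where 13.9% of all genes tested were called. At an unadjusted p under 0.05 there were 3 genes. Those 3 were ORAI1 (log2 0.21 higher in set 2), TRPV3 (-0.47) and TRPC1 (-0.44). Within sets, 3 of the 10 genes were called for TN in set 1 (TRPV3, ATP2B4 and ITPR1, all lower, where 14.2% of all genes tested were called), 1 for TK in set 2 (TRPV3, 12.5%) and 1 for DB in set 2 (TRPV3, 0.526%). None of the 10 was called by edgeR for DB in sets 1 and 3 (2.10% and 2.28%), for TN in sets 2 and 3 (5.05% and 0.0989%), for COM in sets 1, 2 and 3 (4.09%, 0.501% and 0.0989%) or for SPH in sets 1, 2 and 3 (0.0618%, 0.0556% and 0.00618%). At an unadjusted p under 0.05 there were 3 and 5 for DB, 0 and 0 for TN, 5, 1 and 0 for COM and 0, 2 and 0 for SPH in those sets. No share of all genes tested is at hand for that threshold. With TN A as the only TN library of set 1, TRPV3 (-0.98) and TRPC1 (-1.02, adjusted p = 0.016) were called, and ATP2B4 (-0.51, adjusted p = 0.066) and ITPR1 (-0.62, adjusted p = 0.056) were not. Whether a form's change differed between sets was tested for the 4 forms present in all sets, in 40 tests of gene and form, and the lowest adjusted p was 0.25, for ATP2B4 in TN. Over all genes tested, such a difference was called in 1.48% for TN, 0.130% for DB, 0.0124% for COM and 0.00% for SPH. Those tests have 1 Control library in set 3 and 1 library per form in sets 2 and 3, which limits what they can show.

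For each gene called in the joint test, the genes with the most similar course over the 27 libraries were sought among 11126 genes, by Pearson's r of log2 CPM with the mean of each set removed. For TRPV3 these were MMP1 (r = 0.89) and MMP10 (r = 0.87), collagenase and stromelysin of the matrix metalloproteinase family. MMP1 averaged 100 ± 42.3 CPM in DB, 88 ± 48.8 in COM, 39.1 ± 23 in SPH, 21.3 ± 10.4 in TN and 3.59 ± 0.953 in TK (SD, n = 4 each), against 38.1 ± 27.1 in Control (SD, n = 7). For TRPC1 they were CBLB (r = 0.86) and KLHL24 (0.84), for ATP2B4 ATP9A and PPFIBP1 (0.94 each) and for ITPR1 ANGEL1 (0.88) and ITPKB (0.83). The last is a kinase that uses up inositol trisphosphate. Libraries of a form share their treatment and their preparation, and the values are descriptions.

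A wider list of 111 calcium genes, chosen with earlier results of these data known, covered other store-operated, TRP, Piezo, purinergic and voltage-gated channels, release, pumps and exchangers, mitochondrial uptake, and calcineurin signalling, and 77 of them were tested. In the joint test 21 of 77 (27.3%) were called, against 23.2% of all genes tested. COM gave 3 higher and 4 lower (9.09% of the 77, against 6.36% of all genes tested), DB 5 higher and 2 lower (9.09%, against 10.02%), TK 5 higher and 6 lower (14.3%, against 15.38%) and TN 5 higher and 3 lower (10.4%, against 11.72%). SPH gave 0 (7 at an unadjusted p under 0.05, and 0 by DESeq2). These shares lie near those of all genes tested. Without TN B, TN gave 3 higher and 3 lower. Among 19 tested genes of release from stores, 10 (52.6%) were called in the joint test. No voltage-gated channel of the 7 tested was (1 at an unadjusted p under 0.05). These are the highest and lowest shares of the lists, named after their values were seen. The other lists ran from 10% to 30.8%. The only call in the store-operated list was ORAI2, a relative of ORAI1, lower in TK by log2 0.43, written as -0.43 (SE 0.12, adjusted p = 0.014), and it was picked out after its value was seen.

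Of the 19 genes of release from stores, 1 was higher and 2 lower in COM (15.8%, against 6.36% of all genes tested). In DB 2 were higher and 0 lower (10.5%, against 10.02%), and in TK 1 higher and 2 lower (15.8%, against 15.38%). In TN 2 were higher and 3 lower (26.3%, against 11.72%), and at most 5 of 19 were called in 1 form. ITPRIP, which binds IP3 receptors, was higher in COM (39.7 ± 3.84 CPM, log2 0.59, SE 0.10, adjusted p = 0.00064), DB (40 ± 8.23 CPM, 0.59, SE 0.10, adjusted p = 0.00057) and TN (33.5 ± 3.74 CPM, 0.33, SE 0.10, adjusted p = 0.03), against 26.3 ± 2.54 CPM in Control. ITPKB and ITPKC are kinases that use up inositol trisphosphate, the ligand of ITPR1 and ITPR3. ITPKB was lower in COM, at 29.5 ± 5.85 CPM against 38.4 ± 2.38 in Control (log2 -0.36, SE 0.09, adjusted p = 0.012). Its relative ITPKC was higher in DB, at 77.2 ± 12.8 CPM against 51.8 ± 5.02 in Control (0.56, SE 0.11, adjusted p = 0.0017). PLCG2, a phospholipase that makes inositol trisphosphate, was lower in TK (24.6 ± 2.37 CPM, log2 -0.61, SE 0.14, adjusted p = 0.003) and TN (26.3 ± 5.66 CPM, -0.55, SE 0.13, adjusted p = 0.0059), against 38.1 ± 3.63 CPM in Control. Without TN B, the TN changes were 0.40 for ITPRIP (adjusted p = 0.014) and -0.50 for PLCG2 (adjusted p = 0.022).

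Among channels and pumps, TRPV4, the leading TRPV channel of these cells, was lower in TK, in the same direction as TRPV3 there. It held 62.3 ± 3.7 CPM in TK against 106 ± 25.3 in Control (log2 -0.53, SE 0.12, adjusted p = 0.0047). Control means pool all 3 sets, here and for the other genes of the wider list, whereas TK belongs to set 2 only. The log2 changes take the set into account. The lysosomal channel MCOLN1 was higher in TK (10.7 ± 1.1 CPM, 0.48, SE 0.11, adjusted p = 0.0042) and TN (10.4 ± 1.18 CPM, 0.41, SE 0.11, adjusted p = 0.012), against 7.76 ± 0.795 CPM in Control, and TRPM2 was higher in TK (0.45, SE 0.14, adjusted p = 0.032). Without TN B, MCOLN1 in TN was 0.41 higher (adjusted p = 0.021). The Golgi pump ATP2C2 was higher in TN (0.45, SE 0.14, adjusted p = 0.035), a call lost without TN B (0.41, adjusted p = 0.081), and the mitochondrial exchanger SLC8B1 was higher in COM (0.35, SE 0.10, adjusted p = 0.035). Of the calcium sensing genes, the calcineurin subunits PPP3CC in COM (0.35, SE 0.10, adjusted p = 0.042) and PPP3R1 in DB (0.28, SE 0.06, adjusted p = 0.0084) were higher, and the calmodulin gene CALM3 was lower in DB, at 330 ± 23 CPM against 382 ± 13.6 in Control (-0.25, SE 0.05, adjusted p = 0.0058).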

How the data were processed

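Polyadenylated RNA of 27 libraries was used. The authors deposited 1 table per library with an expected count, TPM and effective length per gene, per the file headers. The submitters' processing notes name Trim Galore, Bowtie2, RSEM and GRCh38; no source used here gives their versions or whether counting used strand. TPM as deposited by the authors were used for levels per length only. Expected counts were rounded and analysed in R 4.3.3 with edgeR 4.0.16 (filterByExpr, TMM, quasi-likelihood F-test, a mean per group plus the library set, Benjamini-Hochberg over 16173 genes, threshold 0.05). Pairs of forms were adjusted over all genes and 10 pairs. A fit with a mean per group and set gave values within sets. DESeq2 1.42.0 was an alternative. The tests were tried on simulated data. Replicates of a group differed beyond counting error (chi-square per degree of freedom 2.42 to 69.1). Pairing by letter was left out of the main fit and used as a block in an alternative only. By deviations from group means, same-letter libraries had a median r of 0.068 (27 of 60 pairs over 0.1), against -0.021 in other pairs. Libraries of the same set had a median r of 0.128, against -0.056 in other pairs. In COM, DB, SPH and TN, letter C is set 2 and letter D is set 3, so the same-letter median partly reflects the set. It cannot decide on pairing by letter, which remains possible. The members and lists were chosen with earlier results of these data known. The text describes all 10 members, up to 4 called genes of the wider list per comparison (largest change, mean of at least 5 CPM) and the 2 most similar genes per member called jointly. Coordinates are from GENCODE 29.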

Additional observations from a re-analysis of the deposited data

Results flagged for a closer look

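In 4 of the 60 combinations of gene and group, 1 library lay far from the others of its group, by its gap to the nearest library over the group's range. Chance alone marks about 1 in 20. STIM1 was 80.3 CPM in TK B, where the group reached 84.8, and 78 CPM in TN B, where it reached 88.8. TN B is the library with liver transcripts (839 CPM in sum). TRPC1 was 3.28 CPM in TN A, where the group reached 5.6. ITPR1 was 11.6 CPM in SPH A, where the group reached 17.7. The gaps were 0.869 to 0.963 of the range in these 4 groups of 4 libraries.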

How the results depend on the processing

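No result changed sign past its threshold. The fits of the wider list and of set 1 without TN B were chosen after seeing the data. Calls among the 10 genes numbered 2 for COM, and 1 without the set term, 1 with the replicate block, 1 with TN C in set 1, and 0 within each of sets 1, 2 and 3. DB had 2, and 1 with the replicate block, 0 within sets 1 and 3 and 1 within set 2. TK had 2, and 3 without the set term, 3 without the filter on low counts and 1 within set 2, the set of all its libraries. TN had 1, and 3 without the filter on low counts, 3 within set 1 and 0 within sets 2 and 3. SPH had 0 throughout. Over all genes tested, the replicate block moved the calls from 1029 to 367 for COM, 1620 to 409 for DB and 1896 to 396 for TN. For TK they moved from 2487 to 2521. Without the set term the calls over all genes were 543 for COM, 915 for DB, 695 for TN and 2569 for TK. Without the filter, which tests more genes, they were 2256 for TK and 2020 for TN. Set 2 against set 1 of Control had 0, and 1 without the filter. Leaving out each library in turn gave 0 to 2 for COM, 1 to 3 for DB, 1 to 3 for TK, 1 to 3 for TN, 0 to 1 between the Control sets, 3 to 6 in the joint test (4 with all libraries) and 11 to 17 over the pairs (15 with all libraries). The cause was not tested. The replicate block, by letter, moved ATP2B4 in DB to 0.46 (adjusted p = 0.099) and STIM1 in COM to adjusted p = 0.17. ATP2B4 was also called in TN with TN C in set 1 (-0.42, adjusted p = 0.018), in TK without the set term (-0.41, adjusted p = 0.046), and without the filter in COM (0.26, adjusted p = 0.039), TK (-0.28, adjusted p = 0.02) and TN (-0.30, adjusted p = 0.0079). STIM1 in COM was not called without the filter (adjusted p = 0.25). The joint test called 5 without the set term and with TN C in set 1, and 6 by DESeq2 and without the filter. Over the alternatives that leave out no library, 487 values kept their side of the threshold, 25 lost a call and 8 gained one. A value called in neither fit counts as kept. Of the pairs of forms, only values called in the main fit were followed, so gains among pairs are not counted. DESeq2 called 3 genes for COM against TN, 2 for DB against SPH and 2 for SPH against TN. The main fit called 2, 1 and 1 there, and the counts were equal in the other pairs. TRPV6, TRPC1 and TRPV3 had at most 94, 261 and 631 counts per library, which limits the precision of their changes.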
